A study of Rattus norvegicus with 26 samples.

Results

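Neurotrophic factors and their receptors were followed across primary cultures of neurons, astrocytes, oligodendrocytes and microglia. The 7 genes were Bdnf, Ntf3, Gdnf and Cntf, which encode neurotrophic factors, and Ntrk2, Ntrk3 and Ngfr, which encode receptors. They were picked by annotated symbol in the probe table of the array, where they accounted for 12 of 31042 probe sets and 7 of 14217 genes. A probe set is the group of short probes that the array reads as one value, and every probe set of each gene was kept: 5 for Ntrk2, 2 for Bdnf and 1 for each other gene. RNA came from rat brain and was hybridised to 26 Affymetrix arrays. There were 16 arrays of cultures, 4 replicates of each of the 4 cultures, and 10 arrays of mixed culture RNA, 2 replicates of each of 5 mixtures. The labels place the origin of the cultures in the cerebral cortex of rat pups, and name no treatment or genotype for any group. They give postnatal day 1 for every culture array except microglial replicate 4, for which no age is recorded. Microglial replicate 4 is labelled as a microglial culture by title and cell type, but its description reads as a mixture. The design text calls the culture replicates biological, and nothing in the labels says which of them shared animals. Each array reads the RNA of a whole culture, so fewer cells of a type and less RNA per cell cannot be told apart.

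Neurotrophins are secreted as precursors, cleaved to mature factors, and act through the Trk receptor kinases and through Ngfr, the low-affinity receptor that all neurotrophins share. BDNF acts mainly through the receptor encoded by Ntrk2 (TrkB) and NT-3, the product of Ntf3, mainly through that of Ntrk3 (TrkC). GDNF acts through Ret with a co-receptor of the GFRA family, and CNTF, a cytokine of the interleukin-6 family known in astrocytes and Schwann cells, acts through CNTFR, LIFR and the shared subunit encoded by Il6st. Ntrk2 is known to give both a full-length receptor with a kinase and shortened receptors without one, and astrocytes are known for a shortened form.

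The cultures carried the markers of their labels, and several also carried those of other cell types. Neuron markers averaged 10.79 ± 0.13 (SD, n = 4) on the log2 scale in neuronal cultures and 5.12 to 6.44 in the others. The 6 astrocyte markers averaged 10.78 ± 0.45 in astrocyte cultures, but 7.28, 8.22, 9.57 and 9.31 in neuronal replicates 1 to 4 and 9.10, 7.36, 6.56 and 6.63 in oligodendrocyte replicates 1 to 4. The 6 oligodendrocyte markers measured averaged 10.94 ± 0.93 in oligodendrocyte and 8.58 ± 0.80 in microglial cultures. Microglia markers averaged 10.23 ± 0.41 in microglial and 8.71 ± 0.52 in oligodendrocyte cultures. Pericyte and smooth muscle markers averaged 8.58 ± 0.56 in astrocyte cultures and 5.43 to 6.12 in the others. Of that list, Rgs5 was low in every culture (means of 3.62 to 3.80). Ogn, a fibroblast and meninges marker, read 9.96 to 10.14 in astrocyte replicates, against means of 4.69 to 4.88 in the other cultures. Dcn and Lum of the same list were low in every culture. Their means were 3.45 and 3.16 in astrocyte cultures, and 3.52 to 3.60 and 3.14 to 3.32 in the others. Astrocyte replicate 4 stood apart: its fibroblast and meninges markers averaged 9.23 against 6.57 to 6.66 in the other 3, through 3 collagen genes and not Ogn, Dcn or Lum, and its astrocyte markers 10.14 against 10.88 to 11.18. Of the defining markers, Slc1a2 was below the array median in every culture and the 4 endothelial markers measured were below it in every culture.

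Cntf and 1 probe set of Ntrk2 separated the cultures most widely: Cntf was high in astrocyte cultures alone, and Ntrk2 probe set 1368972_at in neuronal cultures alone. Bdnf was highest in neuronal cultures, Ngfr in 2 of the 4 oligodendrocyte cultures, and Ntf3 was higher in astrocyte than in oligodendrocyte cultures. Gdnf, Ntrk3 and Ntrk2 probe set 1370652_at were dim, which here means below the median of all probe sets on each of the 16 culture arrays. These 3 of 12 probe sets compare with 34.6% of all probe sets that were dim. A difference between cultures was called in limma where the p adjusted by Benjamini and Hochberg over the 31042 probe sets was under 0.05 and the log2 difference at least 1.

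Counts of calls among the 12 probe sets are given with the share of all probe sets called the same way. Between neuronal and astrocyte cultures 2 were higher and 3 lower in neurons, against backgrounds of 12.0% and 12.0%. Neuronal against oligodendrocyte cultures gave 2 higher and 2 lower, with backgrounds of 11.0% and 10.6%. Against microglial cultures 3 were higher and 0 lower in neurons, with backgrounds of 14.1% and 11.6%. In astrocyte against oligodendrocyte cultures 3 were higher and 2 lower, where 8.04% and 7.85% of all probe sets were. Astrocyte against microglial cultures gave 4 higher and 0 lower, with backgrounds of 9.13% and 7.05%. Oligodendrocyte against microglial cultures gave 2 higher and 0 lower, with backgrounds of 6.27% and 4.29%. In the 3 comparisons with no lower call in limma, the count of lower probe sets at an unadjusted p under 0.05 was also 0. The share of all probe sets at that threshold was not computed. The median log2 difference of the 12 probe sets was 0.07, 0.33, 0.22, 0.37, 0.38 and 0.46 in these 6 comparisons in turn, and that of all probe sets -0.03, -0.02, -0.10, -0.01, -0.08 and -0.07. Leaving out astrocyte replicate 4 gave 6, 5, 3, 7, 4 and 4 called probe sets in the same order, against 5, 4, 3, 5, 4 and 2 with it. Without microglial replicate 4 the count fell to 2 in astrocyte against microglial and to 1 in oligodendrocyte against microglial cultures. Without microglial replicate 3 it was 0 in the last comparison.

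**Figure D1:**
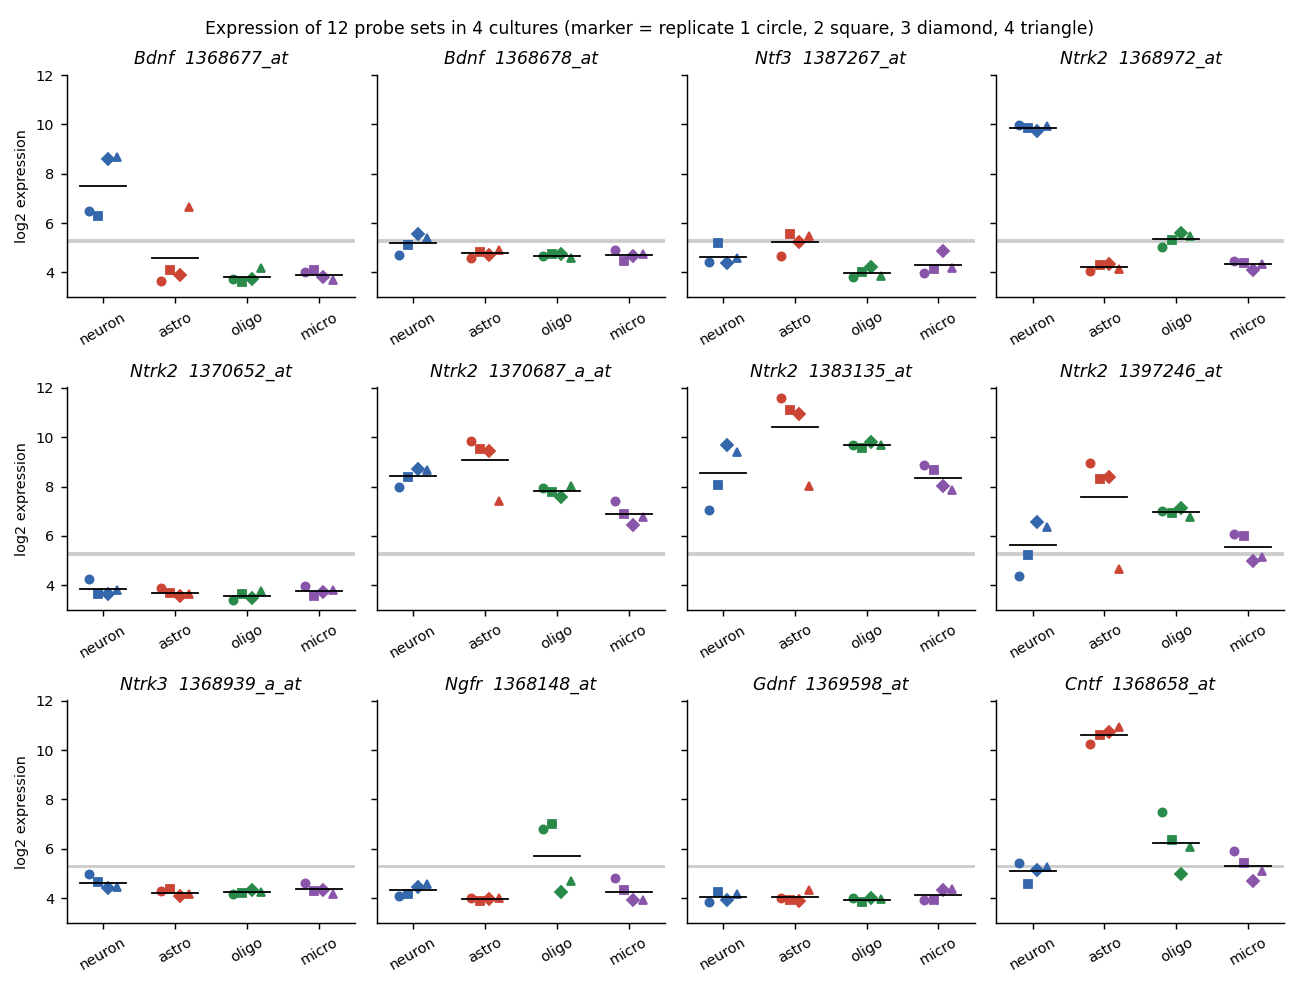
Log2 expression of the 12 probe sets on the 16 culture arrays, with a point for each array, coloured by culture, a bar for the mean of the 4 replicates and a grey band for the array medians (5.25 to 5.31). Cntf is highest in all 4 astrocyte arrays (10.23 to 10.94) and Ntrk2 1368972_at in all 4 neuronal arrays (9.73 to 9.96).

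**Figure D2:**
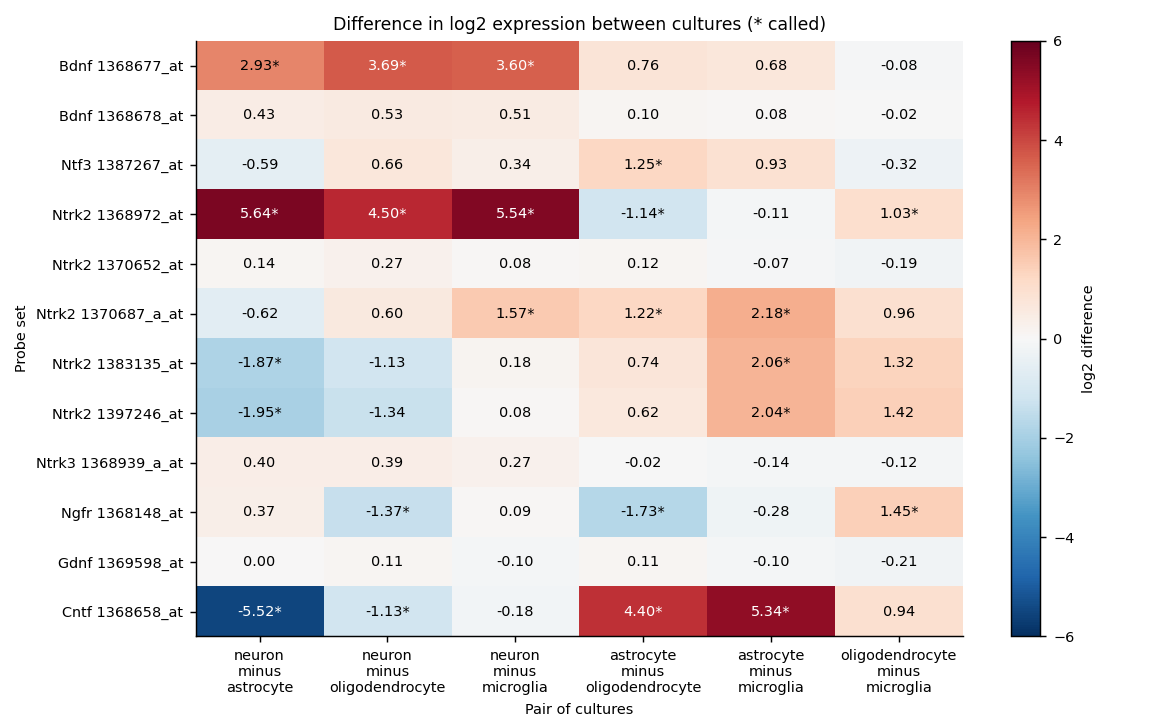
Log2 difference between each pair of cultures for each probe set, coloured by size and sign, with an asterisk where the difference was called. Calls are from limma with all 16 culture arrays fitted together, 4 per culture. The largest differences are those of Ntrk2 1368972_at (5.64 in neuronal minus astrocyte cultures) and Cntf (-5.52 in the same comparison).

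Among the ligands, Cntf showed the widest range. Astrocyte replicates 1 to 4 read 10.23, 10.61, 10.72 and 10.94 on the log2 scale. Neuronal replicates read 5.41, 4.58, 5.15 and 5.28, and microglial replicates 5.92, 5.43, 4.70 and 5.10. Oligodendrocyte replicates were more spread, at 7.49, 6.35, 5.00 and 6.08. Every astrocyte array lay above every array of the other cultures, astrocyte replicate 4 included, where Cntf was the highest of all. The level in astrocyte cultures (10.63 ± 0.30, SD, n = 4) was 45.9-fold that in neuronal cultures (log2 difference 5.52 ± 0.40, SE; limma adjusted p = 1.61e-08). It was 40.4-fold that in microglial cultures (5.34 ± 0.40; adjusted p = 5.36e-08) and 21.1-fold that in oligodendrocyte cultures (4.40 ± 0.40; adjusted p = 5.48e-07). These 3 calls held whichever single array was left out.

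Cntf was also called higher in oligodendrocyte than in neuronal cultures, by 1.13 ± 0.40 on the log2 scale (limma adjusted p = 0.0332), with arrays that overlapped. Leaving out oligodendrocyte replicate 1 took that difference to 0.70 (adjusted p = 0.114), and it also missed the threshold without oligodendrocyte replicate 2 or 4 or neuronal replicate 2 or 3. Oligodendrocyte replicate 1, which had the highest Cntf of its culture (7.49), also had the highest astrocyte marker level (9.10). Its Schwann cell marker level was the highest too (6.28, 4 of 5 markers measured, against 5.11 to 6.0). That came through Pmp2 and Mal, and not through Prx or Egr2. Oligodendrocyte (11.70), neuron (6.74) and pericyte and smooth muscle markers (6.44) were also highest in that replicate. The part of those cells in the Cntf value was not tested. In neuronal cultures, astrocyte markers ran from 7.28 to 9.57 while Cntf stayed between 4.58 and 5.41.

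In the rat annotation (RefSeq, GRCr8) Cntf has 1 transcript and lies next to Zfp91, a zinc finger gene. The 8 probe sets of Zfp91 did not share the pattern: that with the highest level, 1383054_at, averaged 9.55 in neuronal, 9.36 in astrocyte, 9.53 in oligodendrocyte and 9.58 in microglial cultures. The Cntf promoter window is shown because Cntf differed most between cultures among the 4 factors. It covers 250 bases before to 50 after the annotated start, at chr1:219314486-219314785 on the minus strand. Capitals mark a match to TGANTCA, the motif bound by AP-1 factors, 72 bases before the start.
Cntf promoter: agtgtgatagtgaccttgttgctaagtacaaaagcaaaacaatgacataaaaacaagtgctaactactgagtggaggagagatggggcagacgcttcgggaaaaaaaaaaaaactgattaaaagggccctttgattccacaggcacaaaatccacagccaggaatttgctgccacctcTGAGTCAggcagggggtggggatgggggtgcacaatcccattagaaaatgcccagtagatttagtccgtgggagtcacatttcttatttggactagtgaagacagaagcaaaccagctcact
That motif was searched on both strands and occurred in 7.33% of 33469 promoter windows of the same length. The match describes the sequence only, and no binding was measured.

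Bdnf was read by 2 probe sets. Probe set 1368677_at gave 6.48, 6.28, 8.61 and 8.66 in neuronal replicates 1 to 4. Astrocyte replicates gave 3.66, 4.12, 3.90 and 6.64, oligodendrocyte replicates 3.72, 3.62, 3.75 and 4.18, and microglial replicates 4.00, 4.11, 3.81 and 3.70. Neuronal replicates thus fell into a lower and a higher pair, and astrocyte replicate 4 lay above the lower neuronal pair. The neuronal mean of 7.51 ± 1.30 (SD, n = 4) was 2.93 ± 0.61 (SE) above that of astrocyte cultures on the log2 scale (7.6-fold; limma adjusted p = 0.000955). It was at least 12.9-fold that of oligodendrocyte cultures (3.69 ± 0.61; adjusted p = 0.000137) and at least 12.2-fold that of microglial cultures (3.60 ± 0.61; adjusted p = 0.000134). These 2 folds are lower bounds because the probe set was below the array median on every oligodendrocyte and microglial array.

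All 3 neuronal calls for Bdnf 1368677_at held whichever array was left out. Without astrocyte replicate 4 the difference between neuronal and astrocyte cultures was 3.61 (limma adjusted p = 1.51e-05). Within the pairs, it was 4.05 (adjusted p = 0.0001) with neuronal replicates 3 and 4 alone and 1.80 (adjusted p = 0.028) with replicates 1 and 2 alone. Neuron markers did not follow the split, at 10.76, 10.96, 10.64 and 10.77 in neuronal replicates 1 to 4, whereas astrocyte markers did (7.28, 8.22, 9.57 and 9.31). In astrocyte replicate 4, neuron markers averaged 5.17, within the range of the other 3 (4.99 to 5.20), and fibroblast and meninges markers averaged 9.23. What these markers contributed to the Bdnf values was not tested.

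The other Bdnf probe set, 1368678_at, covered a narrow range. Neuronal replicates read 4.71, 5.13, 5.57 and 5.41, and the other 12 arrays lay between 4.48 and 4.93. Its differences had the same sign as those of 1368677_at, at 0.43 (adjusted p = 0.0325), 0.53 (0.0111) and 0.51 (0.0116) above astrocyte, oligodendrocyte and microglial cultures in limma, but none reached a log2 difference of 1. Over the 16 culture arrays the pair had a Pearson r of 0.857, given as a description because the arrays share 4 cultures.

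RefSeq lists 11 transcripts for Bdnf in GRCr8, and 6 promoter windows were matched. Bdnf is known to be transcribed from several promoters, some of which respond to neuronal activity. A pair is shown because they differ in the motifs found, and which transcript each probe set reads is not given in the sources used here. In the first, at chr3:116619383-116619682 on the plus strand, capitals mark a match to the STAT motif TTCNNNGAA 135 bases before the start. In the second, at chr3:116637608-116637907 on the plus strand, they mark the half-site of the cAMP response element (TGACG, or CGTCA on the other strand) 35 bases before the start.
Bdnf promoter with a STAT match: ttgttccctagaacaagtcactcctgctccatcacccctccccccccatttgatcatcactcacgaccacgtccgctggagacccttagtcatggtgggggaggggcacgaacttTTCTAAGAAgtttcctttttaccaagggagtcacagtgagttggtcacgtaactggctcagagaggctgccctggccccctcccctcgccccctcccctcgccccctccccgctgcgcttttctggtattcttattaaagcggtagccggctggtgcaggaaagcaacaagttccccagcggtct
Bdnf promoter with a cAMP response half-site: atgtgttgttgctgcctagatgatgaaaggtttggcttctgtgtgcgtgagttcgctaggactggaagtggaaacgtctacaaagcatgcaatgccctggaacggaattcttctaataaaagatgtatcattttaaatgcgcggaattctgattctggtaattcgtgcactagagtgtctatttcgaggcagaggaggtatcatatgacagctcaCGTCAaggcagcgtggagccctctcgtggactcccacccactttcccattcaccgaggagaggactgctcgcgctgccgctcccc
The half-site occurred in 21.2% and the STAT motif in 8.87% of the 33469 windows, on either strand. The motifs were chosen after the windows had been seen, and no factor binding was measured.

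Ntf3, the ligand of TrkC, was near the lower end of the scale throughout. Astrocyte replicates read 4.66, 5.56, 5.24 and 5.46, and neuronal replicates 4.41, 5.18, 4.38 and 4.57. Oligodendrocyte replicates read 3.83, 4.02, 4.21 and 3.87, and microglial replicates 3.98, 4.16, 4.86 and 4.17. Astrocyte and oligodendrocyte arrays did not overlap, and astrocyte cultures (5.23 ± 0.40, SD, n = 4) were called at least 2.38-fold higher (log2 difference 1.25 ± 0.23, SE; limma adjusted p = 0.000478). The difference from microglial cultures, 0.93, had an adjusted p of 0.00427 but did not reach a log2 difference of 1. That difference was called under quantile normalization of the cultures alone (1.01), with array weights (1.05), and without astrocyte replicate 1 (1.13) or microglial replicate 3 (1.12). Neuronal cultures lay between, 0.59 below astrocyte (adjusted p = 0.0475) and 0.66 above oligodendrocyte cultures (adjusted p = 0.0299), neither difference being called. The fibroblast and meninges markers that set astrocyte replicate 4 apart did not do so for Ntf3, which there (5.46) was within the range of the other 3.

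Gdnf was dim on all 16 arrays, with culture means of 4.05, 4.05, 3.94 and 4.15 in neuronal, astrocyte, oligodendrocyte and microglial cultures. None of its 6 differences was called, and at this signal a difference could not be told from the lower end of the scale.

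Of the receptors, Ntrk2 gave patterns that depended on the probe set. Probe set 1368972_at read 9.96, 9.84, 9.73 and 9.93 in neuronal replicates 1 to 4. It read 4.08, 4.29, 4.35 and 4.16 in astrocyte, 5.04, 5.3, 5.62 and 5.48 in oligodendrocyte and 4.47, 4.39, 4.09 and 4.36 in microglial replicates. All neuronal arrays were more than 4 log2 units above any other, and the replicates of each culture were close to each other. Neuronal cultures were at least 50-fold above astrocyte cultures (log2 difference 5.64 ± 0.12, SE; limma adjusted p = 8.79e-14) and at least 46.4-fold above microglial cultures (5.54 ± 0.12; adjusted p = 1.4e-13). They were 22.7-fold above oligodendrocyte cultures (4.5 ± 0.12; adjusted p = 9.43e-13). Oligodendrocyte cultures in turn were at least 1.14 above astrocyte (adjusted p = 3.59e-06) and at least 1.03 above microglial cultures (adjusted p = 2.45e-05), with no overlap of arrays. The second of these fell below a log2 difference of 1 without oligodendrocyte replicate 3 (0.95) or 4 (0.99) or microglial replicate 3 (0.95). Neuron markers averaged 6.44 in oligodendrocyte against 5.12 in astrocyte cultures. Within oligodendrocyte replicates 1 to 4 the average was 6.74, 5.99, 6.71 and 6.33, and its members were divided. Tubb3 (7.77, 7.94, 8.63 and 8.41) and Map2 (10.30, 10.29, 10.91 and 11.13) were lower in replicates 1 and 2, as 1368972_at was. Snap25, Celf4 and L1cam were highest in replicate 1, and Syt1 in replicate 4. The part of neurons in these values was not tested.

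Probe set 1383135_at, the brightest of Ntrk2 over the cultures, was highest in 3 of the 4 astrocyte cultures. Astrocyte replicates 1 to 4 read 11.61, 11.10, 10.95 and 8.02. Neuronal replicates read 7.05, 8.06, 9.68 and 9.39, oligodendrocyte replicates 9.67, 9.56, 9.82 and 9.68, and microglial replicates 8.89, 8.67, 8.02 and 7.86. Astrocyte replicate 4 lay with the microglial arrays, and the other 3 lay above every other array. Astrocyte cultures (10.42 ± 1.62, SD, n = 4) were 1.87 ± 0.67 (SE) above neuronal (limma adjusted p = 0.032) and 2.06 ± 0.67 above microglial cultures (adjusted p = 0.0235). Without astrocyte replicate 4 these differences were 2.67 (adjusted p = 0.000267) and 2.86 (adjusted p = 0.000216). Without it astrocyte cultures were also called above oligodendrocyte cultures (1.54, adjusted p = 0.0204) and oligodendrocyte above microglial cultures (1.32, adjusted p = 0.0365). With replicate 4 kept, the call against neuronal cultures was lost when any 1 of astrocyte replicates 1 to 3 or neuronal replicates 1 and 2 was left out (adjusted p from 0.0811 to 0.117). The call against microglial cultures was lost when any 1 of astrocyte replicates 1 to 3 or microglial replicates 3 and 4 was left out (adjusted p from 0.0583 to 0.0784). With neuronal replicates 1 and 2 both left out the difference was 0.88 (adjusted p = 0.402).

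Probe set 1397246_at followed the same order at lower levels. Astrocyte replicates read 8.95, 8.32, 8.38 and 4.68, and neuronal replicates 4.37, 5.23, 6.56 and 6.36. Oligodendrocyte replicates read 7.03, 6.94, 7.13 and 6.76, and microglial replicates 6.08, 5.99, 5.00 and 5.13. Astrocyte replicate 4 was again far below the other 3. Astrocyte cultures were 1.95 ± 0.73 (SE) above neuronal (limma adjusted p = 0.0395) and 2.04 ± 0.73 above microglial cultures (adjusted p = 0.0375). Without astrocyte replicate 4 these rose to 2.92 (adjusted p = 4.34e-05) and 3.0 (adjusted p = 5.21e-05). With all arrays kept, the 2 calls were lost on leaving out any 1 of the arrays named for 1383135_at (adjusted p from 0.09 to 0.13 and from 0.0853 to 0.119). Over the 16 arrays the 2 probe sets had a Pearson r of 0.989, whereas 1368972_at and 1383135_at had one of -0.312.

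The third bright Ntrk2 probe set, 1370687_a_at, was intermediate. Astrocyte replicates read 9.86, 9.51, 9.46 and 7.43, neuronal replicates 7.99, 8.40, 8.72 and 8.68, oligodendrocyte replicates 7.94, 7.79, 7.59 and 8.04, and microglial replicates 7.43, 6.89, 6.45 and 6.75. Here neuronal and astrocyte cultures were both above microglial cultures, by 1.57 ± 0.40 (SE; limma adjusted p = 0.00377) and 2.18 (adjusted p = 0.000432). The first of these was 1.31 (adjusted p = 0.0506) with neuronal replicates 3 and 4 left out. Astrocyte cultures were 1.22 above oligodendrocyte cultures (adjusted p = 0.0259), a call that was lost without astrocyte replicate 1, 2 or 3 or oligodendrocyte replicate 2 or 3. Between astrocyte and neuronal cultures the difference was 0.62 (adjusted p = 0.244) with all arrays, and 1.16 in favour of astrocyte cultures without astrocyte replicate 4 (adjusted p = 0.000397). The fifth probe set, 1370652_at, was dim, with means of 3.85, 3.70, 3.58 and 3.77.

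**Figure D3:**
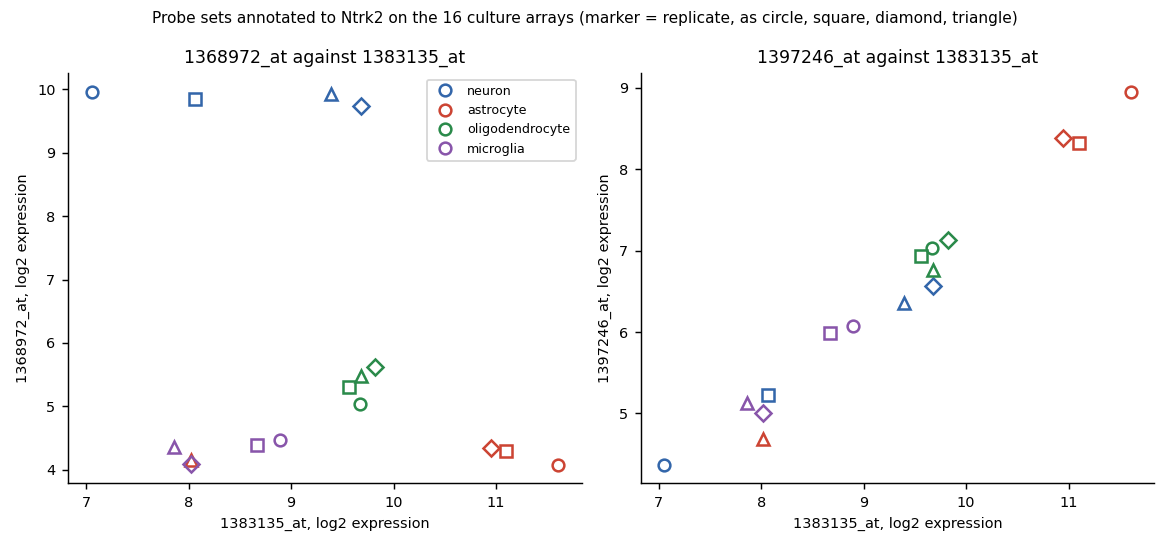
Ntrk2 probe sets set against each other on the 16 culture arrays, in log2 expression, with colour for the culture and marker shape for the replicate. On the left 1368972_at separates the 4 neuronal arrays (9.73 to 9.96) from all others whatever the value of 1383135_at; on the right 1397246_at and 1383135_at lie along 1 line (r = 0.989), with astrocyte replicate 4 at its lower end.

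Whether probe sets of 1 gene differed unequally between cultures was tested on their difference within each array, the brightest probe set minus each other one. For 1383135_at minus 1368972_at that difference was -1.32 ± 1.29 (SD, n = 4) in neuronal, 6.20 ± 1.61 in astrocyte, 4.32 ± 0.21 in oligodendrocyte and 4.03 ± 0.42 in microglial cultures. In exact two-sided permutation tests of 4 against 4 arrays, 8 of the 30 comparisons reached the smallest p that design allows, 0.0286, and 0 passed after adjustment over the 30 (smallest adjusted p = 0.107). Because no smaller p is possible, any call after adjustment required most of the 30 to reach 0.0286. A limma fit over all 6609 such pairs of probe sets on the array, added after the data had been seen, gave 13 of 30 at an adjusted p under 0.05. There 1383135_at minus 1368972_at was 7.52 ± 0.64 (SE) lower in neuronal than in astrocyte cultures (adjusted p = 5.34e-08), and 8.29 ± 0.48 lower without astrocyte replicate 4 (adjusted p = 1.05e-09). For the pair 1383135_at and 1397246_at it was 0.08 ± 0.17 (adjusted p = 0.759), so that no unequal change was found between them. For the Bdnf pair it was 2.49 ± 0.51 (adjusted p = 0.000753). Unequal change within a gene was common on this array: 22.5% of all pairs were called in neuronal against astrocyte, 19.6% in neuronal against oligodendrocyte and 25.5% in neuronal against microglial cultures. That share was not computed for the comparisons without neuronal cultures, which also held some of the 13. Ntrk2 1370652_at was dim and Bdnf 1368678_at was below the array median on 14 of 16 arrays. Unequal change with these probe sets cannot be told from the lower end of the scale. RefSeq lists 14 Ntrk2 transcripts in GRCr8, and which of them each probe set reads is not given in the sources used here.

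Within the neuronal cultures, the astrocyte-high probe sets of Ntrk2 moved with astrocyte markers. In neuronal replicates 1 to 4, 1383135_at ran 7.05, 8.06, 9.68 and 9.39 beside astrocyte markers at 7.28, 8.22, 9.57 and 9.31, whereas 1368972_at stayed between 9.73 and 9.96. In astrocyte replicate 4, where 1383135_at was 8.02, Gfap (12.04 against 13.35 to 13.73), Aqp4 (9.97 against 12.28 to 12.67) and Slc1a3 (11.34 against 12.72 to 12.91) were below the other 3 replicates. Gja1 was close to them (11.63 against 11.78 to 12.69), Slc1a2 was dim, and Fgfr3 was above them (11.50 against 10.40 to 10.48). Oligodendrocyte cultures read 9.56 to 9.82 with 1383135_at while astrocyte markers there ranged from 6.56 to 9.10, so no such relation was seen across those 4 arrays. Nor was one seen in microglial cultures, where 1383135_at read 8.89, 8.67, 8.02 and 7.86 beside astrocyte markers at 6.16, 5.76, 6.18 and 5.94. The part of other cells in these values was not tested.

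Ntrk3, the receptor of NT-3, was dim on all 16 arrays. Its means were 4.63, 4.23, 4.24 and 4.37 in neuronal, astrocyte, oligodendrocyte and microglial cultures. Neuronal cultures were 0.40 above astrocyte (limma adjusted p = 0.0182) and 0.39 above oligodendrocyte cultures (adjusted p = 0.025), and neither difference was called.

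Ngfr was split within the oligodendrocyte cultures. Their replicates 1 to 4 read 6.79, 7.02, 4.27 and 4.71. Neuronal replicates read 4.08, 4.19, 4.46 and 4.59, astrocyte replicates 3.99, 3.90, 3.95 and 4.02, and microglial replicates 4.80, 4.32, 3.93 and 3.94. Oligodendrocyte replicates 1 and 2 were the 2 arrays of 16 on which Ngfr exceeded the array median. The oligodendrocyte mean of 5.70 ± 1.41 (SD, n = 4) was 1.73 ± 0.48 (SE) above that of astrocyte (limma adjusted p = 0.00974), 1.37 above that of neuronal (adjusted p = 0.0305) and 1.45 above that of microglial cultures (adjusted p = 0.0341), all lower bounds because Ngfr was below the array median on every array of those 3 cultures. The first of these held whichever array was left out, but missed the threshold when only those 2 cultures were fitted (adjusted p = 0.0588). Without oligodendrocyte replicate 1 the other 2 were 1.00 (adjusted p = 0.11) and 1.09 (adjusted p = 0.116), and without replicate 2 they were 0.92 (adjusted p = 0.111) and 1.01 (adjusted p = 0.108). The call against neuronal cultures was also lost without neuronal replicate 1 or 2, and that against microglial cultures without microglial replicate 2, 3 or 4.

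Markers of mature oligodendrocytes moved with that split in part. Mog, a late myelin protein, read 8.70, 7.66, 4.66 and 6.25 in oligodendrocyte replicates 1 to 4, and the 6 oligodendrocyte markers averaged 11.70, 11.43, 9.61 and 11.02. Mag (12.28, 12.15, 8.60 and 11.24) and Myrf (11.07, 11.24, 9.97 and 10.76) were also higher in replicates 1 and 2. Mbp (14.13, 14.13, 12.35 and 13.94) and Cnp (13.26, 13.20, 12.67 and 13.16) mainly set replicate 3 apart. Ugt8 (10.74, 10.19, 9.43 and 10.79) was highest in replicate 4. The 3 precursor markers averaged 9.02, 9.40, 8.80 and 8.78. Schwann cell markers, a list that matters because Ngfr is known from Schwann cells, averaged 6.28, 5.79, 5.11 and 6.0 there. Of the 4 genes averaged, Mal read 5.46, 4.55, 3.75 and 3.96, higher in replicates 1 and 2 as Ngfr was. Pmp2 read 7.51, 6.72, 4.09 and 7.06, Prx 6.10, 6.06, 6.30 and 6.76, and Egr2 6.04, 5.82, 6.29 and 6.24, none of which divided the replicates in that way. The part of any of these cells in the Ngfr values was not tested.

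Other genes of neurotrophic signalling were taken as a list of 57 ligands, receptors, processing enzymes, adaptors and response genes, of which 49 had 83 probe sets under their symbol. Higher and lower calls among the 83 were 12 and 17 in neuronal against astrocyte cultures, where 12.0% and 12.0% of all probe sets were called. They were 12 and 11 in neuronal against oligodendrocyte (backgrounds 11.0% and 10.6%) and 15 and 12 in neuronal against microglial cultures (14.1% and 11.6%). Astrocyte against oligodendrocyte cultures gave 9 and 2 (8.04% and 7.85%) and astrocyte against microglial cultures 13 and 2 (9.13% and 7.05%). Oligodendrocyte against microglial cultures gave 8 and 9 (6.27% and 4.29%). The list's median log2 difference was -0.17, 0.02, 0.05, 0.22, 0.19 and 0.02 in those comparisons.

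Of the 8 other ligands measured, 2 were lower in neuronal than in astrocyte cultures and 0 higher in limma, and at an unadjusted p under 0.05 the counts were 4 and 0. The background for the limma calls was 12.0% of all probe sets each way. The share of all probe sets at an unadjusted p under 0.05 was not computed, so the counts of 4 and 0 have no background. Ctf1, the cytokine cardiotrophin 1 of the CNTF family, was also highest in astrocyte cultures, at a log2 mean of 6.86 there and 4.21 to 4.27 in the other cultures (at least 2.60 ± 0.20, SE, above oligodendrocyte cultures; limma adjusted p = 1.32e-07). Manf, a secreted factor of the endoplasmic reticulum, averaged 10.27 in astrocyte and 9.14 in neuronal cultures (1.13 ± 0.13; adjusted p = 1.75e-06). Osm, a cytokine of the same family as Cntf, was highest in microglial cultures, at 5.33 against 3.88 in astrocyte cultures (a difference of at least 1.46 ± 0.22; adjusted p = 9.61e-05).

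Of the 32 probe sets of 14 other receptor genes, 6 were higher and 8 lower in neuronal than in astrocyte cultures, against the same background of 12.0% each way. Il6st, the signalling subunit that CNTF, LIF and oncostatin M share, was higher in astrocyte than in neuronal cultures with all 4 of its probe sets. Of these, 1373140_at averaged 8.54 there, 5.90 in neuronal (2.64 ± 0.32; limma adjusted p = 4.16e-06) and 6.08 in microglial cultures (2.46 ± 0.32; adjusted p = 1.59e-05). Cntfr, the CNTF binding subunit, was less unequal, with means of 7.24, 7.02, 6.62 and 6.75 for 1392749_at and no difference of a log2 unit in any of the 6 comparisons. Lingo1, a partner of Ngfr in the receptor for myelin inhibitors, differed by probe set. With 1389514_at it was 5.87 ± 0.42 higher in neuronal than in astrocyte cultures (adjusted p = 1.48e-08) and 3.63 higher in oligodendrocyte than in astrocyte cultures (adjusted p = 6.84e-06). With 1395706_at the same differences were at least 2.15 (adjusted p = 7.56e-06) and 0.54 (adjusted p = 0.153), and with 1393768_at 0.42 (adjusted p = 0.00151) and 0.13 (adjusted p = 0.313). Its partner Rtn4r, which binds those inhibitors, was at least 2.22 higher in neuronal than in astrocyte cultures with 1373008_x_at (adjusted p = 6.82e-05), with neuronal arrays from 6.09 to 7.97. With 1388972_at the means were 7.32 in neuronal and 5.26 in astrocyte cultures. With 1369293_at they were 6.71 and 6.03, which did not reach a log2 difference of 1. Sorcs2, a co-receptor of Ngfr for proneurotrophins, was 2.31, 3.48 and 3.29 above astrocyte, oligodendrocyte and microglial cultures in neurons (largest adjusted p = 8.82e-06). Ncam1, a GDNF co-receptor, differed by probe set, being higher in neuronal than in oligodendrocyte cultures with 1368320_at (2.25, adjusted p = 0.000119) and lower with 1379389_at (-2.32, adjusted p = 0.000132).

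Among the processing enzymes, Plat, the protease that activates the plasmin able to cleave proBDNF, averaged 10.33 in astrocyte and 6.30 in neuronal cultures (difference 4.03 ± 0.54; limma adjusted p = 1.46e-05). It was also at least 5.70 above microglial cultures in astrocytes (adjusted p = 7.11e-07). Furin, a convertase of proneurotrophins, was lower in oligodendrocyte than in microglial cultures by 1.26 (adjusted p = 0.000115), and the related Pcsk6 higher by 1.94 (adjusted p = 0.00245). Of the adaptors, Shc1 and Gab1, which couple receptor kinases to Ras signalling, were lower in neuronal than in astrocyte cultures by 3.49 (adjusted p = 1.81e-08) and 3.01 (adjusted p = 1.4e-08). Socs3, a feedback inhibitor of cytokine receptors, was 1.85 higher in astrocyte than in oligodendrocyte cultures (adjusted p = 0.00186). Among the response genes, Npy, a neuropeptide gene, was 3.14 higher in neuronal than in oligodendrocyte cultures (adjusted p = 0.000122), and Dusp6, a phosphatase of ERK, was 1.11 lower in oligodendrocyte than in microglial cultures (adjusted p = 0.0263).

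Genes with the most similar pattern were ranked by Pearson r of log2 values over the 16 culture arrays, with the brightest probe set of each of the 7 genes that had an SD of at least 0.5. For Cntf these were Hbegf (r = 0.983), Slc35e3 (0.983) and Olfml3 (0.977). For Bdnf they were Gls2 (0.959), Tmx4 (0.953) and Dlx5 (0.952), and for Ntf3 Ndnf (0.906), Zfhx4 (0.871) and Glt8d1 (0.866). Ngfr was closest to Kcne4 (0.939), Hapln2 (0.934) and Chst4 (0.924). Ntrk2 1383135_at was closest to Gpr37l1 (0.944), Acss1 (0.927) and Mrpl10 (0.926), none of which was among those closest to 1368972_at, namely Ttc9b (0.995), Kif5a (0.995) and Rundc3b (0.994). The last set was added after the values had been seen. The arrays share 4 cultures, and the values take in differences between cultures together with those between arrays of 1 culture. They are a description and carry no test.

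The mixtures gave a further reading of the same RNA. In NA1, NA2 and NA3, neuronal and astrocyte RNA were mixed with neuronal fractions of 0.25, 0.5 and 0.75. NAO held fractions of 0.5 neuronal, 0.25 astrocyte and 0.25 oligodendrocyte RNA, and NAOM 0.5, 0.2, 0.2 and 0.1 of neuronal, astrocyte, oligodendrocyte and microglial RNA. Replicate 1 used neuronal replicate 1 and astrocyte replicate 1, and replicate 2 used neuronal replicate 2 and astrocyte replicate 4. Observed values were set beside the weighted sum of the linear values of the parent arrays. Over the 12 probe sets and 10 mixtures the median absolute difference was 0.18 on the log2 scale, and 113 of 120 values lay within 0.5. The median SD of observed minus expected between replicates was 0.15. Observed values tended to lie below the expected ones: the median difference was negative for every probe set, from -0.28 to -0.05.

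Cntf fell with the astrocyte fraction from 9.53 and 10.47 in NA1 to 9.03 and 9.71 in NA2 and 7.94 and 8.68 in NA3, where 8.37 and 8.99 were expected. Ntrk2 1368972_at rose with the neuronal fraction over the same mixtures, from 8.03 and 7.89 through 8.73 and 8.83 to 9.13 and 9.31. Ntrk2 1383135_at differed between the replicates: in replicate 1 it fell from 11.14 to 10.70 and 9.83, while in replicate 2, made with astrocyte replicate 4, it stayed at 7.90, 7.97 and 7.95. Both sets were close to the values expected from their own parents (11.21 to 9.78 and 8.03 to 8.05). Bdnf 1368677_at likewise ran from 4.42 to 5.98 in replicate 1 and from 6.10 to 6.38 in replicate 2. The low Ntrk2 1383135_at and high Bdnf values of astrocyte replicate 4 were thus read again in mixtures of that RNA on other arrays. Ngfr in replicate 1 of NAO and NAOM, made with oligodendrocyte replicate 2, read 4.74 and 4.72, below the expected 5.49 and 5.31 but above the 3.99 and 4.09 of replicate 2, made with oligodendrocyte replicate 4. With 2 replicates that share parents with the cultures, the mixtures are no independent test of the differences between cultures.

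**Figure D4:**
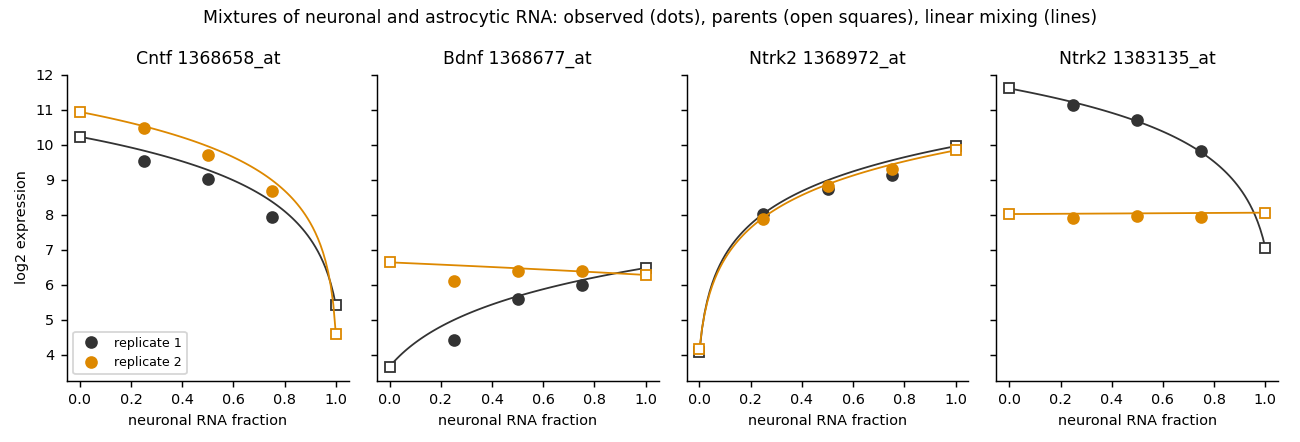
Log2 expression of Cntf, Bdnf and 2 Ntrk2 probe sets against the neuronal fraction in mixtures of neuronal and astrocyte RNA, with dots for observed values, open squares for the parent arrays and lines for linear mixing of the parents, in 1 colour per replicate. Ntrk2 1383135_at falls from 11.14 to 9.83 in replicate 1 and stays between 7.90 and 7.97 in replicate 2, made with astrocyte replicate 4.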

How the data were processed

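The deposited log2 values were made by the authors with RMA in the affy package, per the submitters' processing notes, whose versions are not given in the sources used here. RMA corrects background, quantile-normalizes arrays and summarises probe sets, so values at the lower end of the scale are compressed. The 31099 probe sets ranged from 2.57 to 14.36, and leaving out 57 controls left 31042, dim ones included. A single symbol was annotated to 20826, 436 several and 9780 none. Groups followed the titles. The 16 culture arrays were fitted together in limma 3.58.1 (R 4.3.3; lmFit and eBayes, 1 mean per culture), Benjamini-Hochberg per comparison, and mixtures stayed out of the fit. The labels do not say what the replicate numbers mean, and the main fit did not pair cultures by them. Over 24 same-numbered pairs, deviations from culture means correlated at -0.107 to 0.178, with 5 above 0.1. Differently numbered pairs were not compared, so whether the numbers pair the cultures was not tested. Tables and figures were made with pandas 2.3.3, numpy 2.4.6, SciPy 1.17.1 and matplotlib 3.10.9 in Python 3.11.15, and the fit was tested on simulated data. Promoters came from RefSeq (GRCr8), which matched 4 of the 7 genes. The 7 genes, the lists and the tests were chosen with earlier results of these data known. Named were all probe sets of the 7 genes, the largest called differences of the pathway list in each comparison, and the 3 genes most similar in pattern. Cntfr, Manf, Zfp91 and further probe sets of Il6st, Lingo1, Rtn4r and Ncam1 were named after their values were seen. Alternatives were the low-signal filter, the minimum difference, quantile normalization of the cultures alone, median centring, array weights, 2 cultures at a time, the replicate block and leaving out arrays. The number of arrays limits the precision.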

Additional observations from a re-analysis of the deposited data

Results flagged for a closer look

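In 3 of 48 groups of 4 arrays, 1 array lay far from the other 3 by Dixon's criterion, where chance gives about 1 in 20. All 3 were astrocyte replicate 4. Bdnf 1368677_at read 6.64 there against 3.66 to 4.12 in the other astrocyte cultures. Ntrk2 1370687_a_at read 7.43 against 9.46 to 9.86, and Ntrk2 1397246_at 4.68 against 8.32 to 8.95. On the same array fibroblast and meninges markers averaged 9.23 against 6.57 to 6.66, carried by 3 collagens: Col1a1 read 13.01 against 6.78 to 7.72, Col1a2 13.11 against 7.92 to 8.24, and Col3a1 12.56 against 7.57 to 7.66. Ogn read 10.04 against 9.96 to 10.14, and Dcn (3.52) and Lum (3.13) stayed low as in the other 3 replicates. On that array pericyte and smooth muscle markers averaged 9.35 against 8.0 to 8.52, while Rgs5 of that list (3.71) stayed low. Their part in the 3 values was not tested.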

How the results depend on the processing

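Of 23 called differences of the 12 probe sets, 10 kept direction and call under the 27 alternatives run on the cultures, 13 lost the call under at least 1, and 0 reversed. With no minimum difference, 8 probe sets were called in neuronal against astrocyte and 7 in neuronal against oligodendrocyte cultures. The pathway list then gave 46 and 47 in neuronal against oligodendrocyte and microglial, 32 and 34 in astrocyte against oligodendrocyte and microglial, and 29 in oligodendrocyte against microglial cultures. At a minimum of 1.5, neuronal and astrocyte against oligodendrocyte each gave 2 and oligodendrocyte against microglial 0. The list then gave 19 in neuronal against astrocyte, 6 in astrocyte against oligodendrocyte and 5 in oligodendrocyte against microglial cultures. Array weights left 1 in oligodendrocyte against microglial cultures. Fits of only the 2 cultures compared gave 3 in neuronal against astrocyte and 3 in astrocyte against oligodendrocyte. With neuronal replicates 1 and 2 left out, the counts were 3 against astrocyte and 2 against oligodendrocyte cultures. Leaving out 1 array gave 3 to 6 in neuronal against astrocyte, 2 to 5 in neuronal against oligodendrocyte, 3 in each case in neuronal against microglial, 4 to 7 in astrocyte against oligodendrocyte, 2 to 4 in astrocyte against microglial and 0 to 4 in oligodendrocyte against microglial cultures. The cause of these changes was not tested. With the replicate number as a block, the counts stayed at 5, 4, 3, 5, 4 and 2. The limma fit over pairs of probe sets, added after seeing the data, called 13 of 30 where the permutation test called 0. The permutation test could call any only if most of the 30 reached its smallest p, so these counts cannot be compared. With any 1 array left out, a further addition, 1 to 7 had an unadjusted p under 0.05. No call was possible there. Comparisons with the shortened culture cannot reach a p under 0.05, and the rest are too few to pass after adjustment. Signal near the lower end of the scale limits Gdnf, Ntrk3 and Ntrk2 1370652_at.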
